A study of Mus musculus with 10 samples.

Results

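The genes described here are 9 that B cells and plasma cells use: Ms4a1, Cd79a, Cd79b, Pax5, Spib, Cd22, Ighm, Jchain and Mzb1. They were chosen by name, out of 45777 genes measured, and 8 of the 9 passed the filter on low counts together with 21523 genes in all. RNA was sequenced from subcutaneous tumors of MC38, a mouse colon carcinoma line, grown in wild-type C57BL/6 mice (female, by the study's methods). The tissue was formalin-fixed and paraffin-embedded. Of the 10 libraries, 2 came from the control group (replicates 3 and 5, given neither agent by their label) and 2 from mice given aPD-1, an antibody that blocks the PD-1 receptor of T cells (replicates 3 and 4). Another 3 came from mice given YH29407, an inhibitor of the tryptophan-degrading enzyme IDO1, at 100 mg/kg (replicates 1, 3 and 4), and 3 from mice given both, the YH29407+aPD-1 combination (replicates 2, 3 and 4). All tumors thus share 1 transplanted line in hosts with an intact immune system, and the cells that made the transcripts were not identified. The question was whether these genes differed between the treatments.

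B cells recognise antigen through a surface immunoglobulin paired with the signalling chains that Cd79a and Cd79b encode. Pax5 and Spib encode transcription factors of the lineage, Ms4a1 encodes the CD20 surface protein, and Cd22 encodes an inhibitory receptor that dampens the signal. Plasma cells arise from B cells, switch off much of this program and secrete antibody. Jchain, which joins IgM and IgA subunits, and Mzb1, which helps immunoglobulin fold in the endoplasmic reticulum, belong to that later state, while Ighm, the IgM heavy chain, is used in both. Spib is also used by plasmacytoid dendritic cells.

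Spib and Cd79a were the members that differed most between the combination and YH29407 alone, in opposite directions, and so their promoters are shown. Both are RefSeq sequences on GRCm38.p6, from 250 bases before the start site to 50 bases after it, and 5 of the 9 members had such an entry. Short patterns of B lineage factors were searched on both strands: CCCNNGGG (the core bound by EBF), GAGGAA (the core shared by PU.1 and Spi-B) and the octamer ATGCAAAT. The capitals mark the matches.
Cd79a promoter, chr7:24897247-24897546, + strand: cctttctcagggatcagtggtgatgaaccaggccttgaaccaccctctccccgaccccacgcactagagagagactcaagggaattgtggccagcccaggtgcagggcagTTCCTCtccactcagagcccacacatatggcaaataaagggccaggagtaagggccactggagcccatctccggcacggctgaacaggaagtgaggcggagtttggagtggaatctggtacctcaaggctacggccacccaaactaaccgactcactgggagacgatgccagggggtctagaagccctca
Spib promoter, chr7:44532022-44532321, - strand: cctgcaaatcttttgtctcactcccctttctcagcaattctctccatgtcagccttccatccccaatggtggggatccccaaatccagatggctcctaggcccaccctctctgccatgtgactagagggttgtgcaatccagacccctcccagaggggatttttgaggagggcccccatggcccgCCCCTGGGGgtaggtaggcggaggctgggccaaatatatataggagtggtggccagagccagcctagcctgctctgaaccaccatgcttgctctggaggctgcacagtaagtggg

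The Cd79a promoter held 1 GAGGAA match, read as TTCCTC on the strand shown, 140 bases before the start site. The Spib promoter held 2 CCCNNGGG matches that overlap each other, the first starting 65 bases before the start site. The Cd22 promoter held 1 CCCNNGGG match, and none of the patterns was found in the windows of Pax5 and Jchain. Of 32851 promoters of the same length, 13.7% held CCCNNGGG, 28.3% held GAGGAA and 1.74% held the octamer. These are matches of letters only, and binding was not measured.

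Libraries held 56170804 to 76287659 counts, and 3 counts stood for 0.0393 to 0.0534 CPM (counts scaled to library size). Combination replicate 4 stood apart: 2.28% of its counts were mitochondrial mRNA (0.413% to 0.56% in the rest), and across genes its median Spearman correlation was 0.908 (0.961 to 0.974 for the rest). The summed CPM of 10 keratinocyte genes was 1086 in combination replicate 2 and 224 in combination replicate 3, against 1.07 to 36.1 in the other libraries. Skeletal muscle genes summed to 1134, 1292 and 632 CPM in combination replicates 2, 3 and 4 and to 18.7 to 460 CPM elsewhere. Whether these differences follow from treatment cannot be told apart here, and results are given without single libraries where that moves them.

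The labels of the genes were checked first. Ms4a1, a defining B cell marker, had 0 to 47 counts, with 7 of 10 libraries under 10 counts. The plasma cell gene Mzb1 had 0 counts in 7 libraries. By contrast Cd79a, Cd79b, Pax5, Spib, Cd22 and Ighm each had more than 10 counts in all 10 libraries. Per length, Ighm spanned 5.40 to 36.7 FPKM, Spib 0.0953 to 19.7 FPKM, Cd79a 0.725 to 11.4 FPKM and Ms4a1 0 to 0.205 FPKM. Ms4a1 and Mzb1 thus stood near 0 in libraries where other genes of the list were readily measured, so the levels of Spib, Cd79a and Ighm are described as those of the genes and not of B cells. In bulk RNA, fewer cells of a type and less RNA per cell cannot be told apart.

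**Figure D1:**
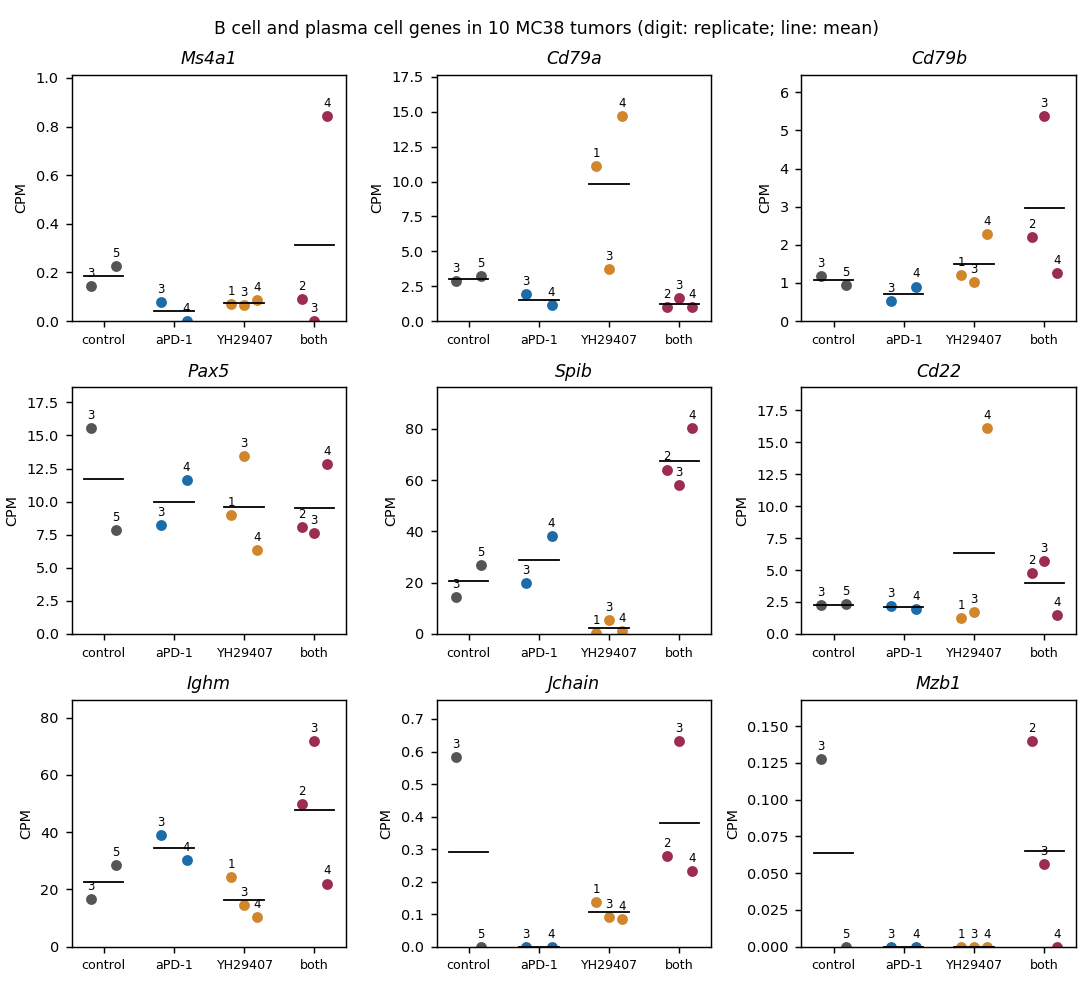
CPM of the 9 genes in each of 10 libraries, by group (both: YH29407+aPD-1), where a point is a library, the digit its replicate number and the line the group mean. Spib lay between 58.1 and 80.1 CPM in the combination and between 0.456 and 5.39 CPM with YH29407 alone, and Cd79a ran the other way, while Ms4a1, Jchain and Mzb1 stayed below 1 CPM.

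In the comparison of the combination with YH29407 alone, Spib was higher, Cd79a was lower and Ighm was higher in the combination, and Pax5 lay at the same level. None of these differences passed the adjusted threshold of edgeR's quasi-likelihood test. Under it 0 of 8 members and 0% of all genes were called. At an unadjusted p under 0.05, 2 members were higher (Spib and Ighm) and 1 was lower (Cd79a), against 10.6% and 6.84% of all genes. DESeq2 called 3 of the members, Cd79a, Spib and Ighm, against 6.51% of all genes. Limma-voom with sample quality weights called the same 3, against 37.6% of all genes, a share near that of the members. All 3 combination libraries were above all 3 YH29407 libraries for 2 members (Spib and Jchain), against 10.4% of all genes, and below for 1 member (Cd79a), against 9.1%. The median log2 fold change of the 8 members was 1.26, and 0.48 over the 6 with more than 10 counts in every library, against 0.04 over all genes. The labels give each library as a sample of its own without saying more, so p-values measure the spread between these samples.

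Among the transcription factors, Spib had the widest range. It was at 14.4 and 26.8 CPM in the control group and at 19.8 and 38.1 CPM with aPD-1. With YH29407 it was at 0.456, 5.39 and 0.952 CPM in replicates 1, 3 and 4, and in the combination at 64.1, 58.1 and 80.1 CPM in replicates 2, 3 and 4. The 3 YH29407 libraries were thus the lowest of the 10 and the 3 combination libraries the highest, with no overlap. The counts behind these values ran from 33 to 5052.

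The Spib log2 fold change of the combination against YH29407 was 4.89 (SE 0.89, edgeR adjusted p = 0.181), and the gene ranked 47 of 21523 by p. The call moved with the libraries used. Without YH29407 replicate 3 the log2 fold change was 6.62 (edgeR adjusted p = 0.0150), with 2.01% of all genes called. Without combination replicates 2 and 3 it was 5.02, from combination replicate 4 alone. That library stood apart in mitochondrial share and correlation, and the fit assumed it to vary like the others. Without combination replicate 4 the log2 fold change was 4.75 (edgeR adjusted p = 0.0665). In DESeq2 the difference had an adjusted p of 3.44e-08.

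Values of other cell types stood beside it. Muscle genes were also lowest with YH29407 alone in replicates 1 and 4 (18.7 and 24.1 summed CPM over 8 genes), and all 8 had more than 3 counts in every library. Mybpc2, a muscle gene that lies 1336 bases from Spib on the same strand and was picked as its neighbour, was at 0.415, 1.42 and 0.765 CPM with YH29407 and at 7.75, 6.16 and 24.6 CPM in the combination. It was at 1.17 and 2.64 CPM in the control group and at 6.70 and 6.09 CPM with aPD-1. Like Spib, it was lower in every YH29407 library than in every combination library. Unlike Spib, it was lower in control replicate 3 than in YH29407 replicate 3, and higher in aPD-1 replicate 3 than in combination replicate 3. The part of Mybpc2 in the Spib result was not tested. The neighbour on the other side, Pold1, which lies 674 bases away, was between 94.1 and 128 CPM in 9 libraries and at 222 CPM in combination replicate 4. The keratinocyte gene Krt14 had 14624, 4829 and 19 counts in combination replicates 2, 3 and 4. The part of keratinocytes and of muscle in the Spib values was not tested.

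The summed level of plasmacytoid dendritic cell genes did not separate the groups as Spib did. The 13 genes of that list summed to 337, 376 and 299 CPM with YH29407 and to 434, 400 and 268 CPM in the combination. Siglech, a surface receptor that defines these cells, had 26, 10 and 14 counts with YH29407 and 48, 62 and 9 counts in the combination. Of the 12 tested genes of the list, 1 (Ly6d) was higher in the combination at an unadjusted p under 0.05, against 10.6% of all genes, and 0 passed the adjusted threshold of edgeR, with a median log2 fold change of 0.94. Ly6d, which keratinocytes also use, was at 6.52 and 3.34 CPM in combination replicates 2 and 3 (both rich in keratinocyte transcripts) and at 0 in combination replicate 4. The most abundant, Tcf4, had a log2 fold change of 0.21, Bst2 of -0.41, Irf7 of 0.12 and Tlr9 of 0.84. The log2 fold change was positive for 10 of the 12 tested genes. Among the markers set for these cells it was 1.24 for Siglech, 1.39 for Ccr9, 1.64 for Klk1 and 0.08 for Cox6a2. Each of these markers had an unadjusted p above 0.05 in edgeR. The part of these cells in the Spib values was not tested.

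Pax5, which fixes B cell identity, was at 15.5 and 7.87 CPM in the control group and at 8.20 and 11.7 CPM with aPD-1. It was at 9.0, 13.5 and 6.34 CPM with YH29407 and at 8.07, 7.63 and 12.9 CPM in the combination. All groups overlapped, and the log2 fold change of the combination against YH29407 was -0.01 (SE 0.39, edgeR adjusted p = 0.987). Its sign turned with small changes of processing. Pax5 shares its locus with antisense genes, as do Ms4a1 and Cd22, and without strand their reads cannot be told apart.

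The receptor chains Cd79a and Cd79b, which work as a pair, did not move together. Cd79a was at 2.86 and 3.23 CPM in the control group and at 1.90 and 1.14 CPM with aPD-1. It was at 11.1, 3.70 and 14.7 CPM with YH29407 and at 0.977, 1.64 and 1.01 CPM in the combination. Each YH29407 library lay above every other library, with replicate 3 nearest to them.

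For Cd79a the log2 fold change of the combination against YH29407 was -3.02 (SE 0.52, edgeR adjusted p = 0.181), rank 28 of 21523 by p. Without YH29407 replicate 3 it was -3.39 (edgeR adjusted p = 0.0163, with 2.01% of all genes called). Without combination replicates 2 and 3 it was -3.40, from combination replicate 4 alone, the library that stood apart. Without combination replicate 4 the log2 fold change was -2.91 (edgeR adjusted p = 0.0720). Its downstream neighbour Arhgef1, 714 bases away, was between 78.9 and 123 CPM in 9 libraries and at 232 CPM in combination replicate 4.

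Cd79b was at 1.19 and 0.955 CPM in the control group and at 0.519 and 0.905 CPM with aPD-1. It was at 1.22, 1.01 and 2.28 CPM with YH29407 and at 2.21, 5.39 and 1.26 CPM in the combination. Combination replicate 3 was the highest library, and the 2 groups overlapped. The log2 fold change of the combination against YH29407 was 0.97 (SE 0.56, edgeR adjusted p = 0.368), 0.25 without combination replicate 3 and -0.37 without combination replicates 2 and 3. Per length, the ratio of Cd79a to Cd79b in FPKM was 11.3, 4.54 and 7.99 with YH29407, 0.539, 0.375 and 0.96 in the combination, and 1.55 to 4.51 in the control and aPD-1 libraries. Cd79a was thus the more abundant chain in every library without the combination and the less abundant one in all 3 combination libraries.

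**Figure D2:**
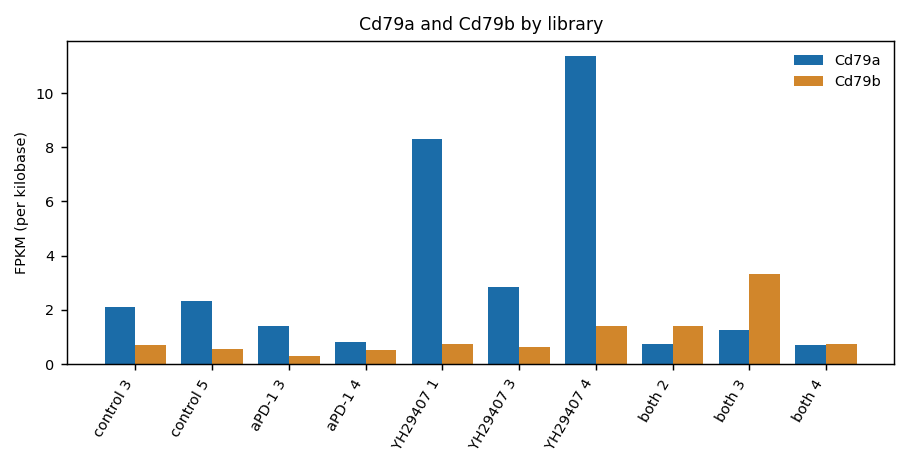
FPKM of Cd79a and Cd79b, the paired signalling chains of the B cell receptor, in each of the 10 libraries (both: YH29407+aPD-1; digit: replicate). Cd79a reached 11.4 FPKM with YH29407, and in the 3 combination libraries it was below Cd79b.

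Cd22, the inhibitory receptor, was high in 1 library. It was at 16.1 CPM in YH29407 replicate 4 and at 1.22 and 1.73 CPM in YH29407 replicates 1 and 3. In the combination it was at 4.78, 5.71 and 1.51 CPM, and in the control and aPD-1 libraries at 1.92 to 2.31 CPM. The log2 fold change of the combination against YH29407 was -0.66 (SE 0.91, edgeR adjusted p = 0.690), and without YH29407 replicate 4 it turned to 1.46. Ms4a1 had 5, 5 and 6 counts with YH29407, 7, 0 and 47 in the combination, 10 and 16 in the control group, and 5 and 0 with aPD-1. Its 47 counts in combination replicate 4 stood alone, and no fold is given for so few counts.

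**Figure D3:**
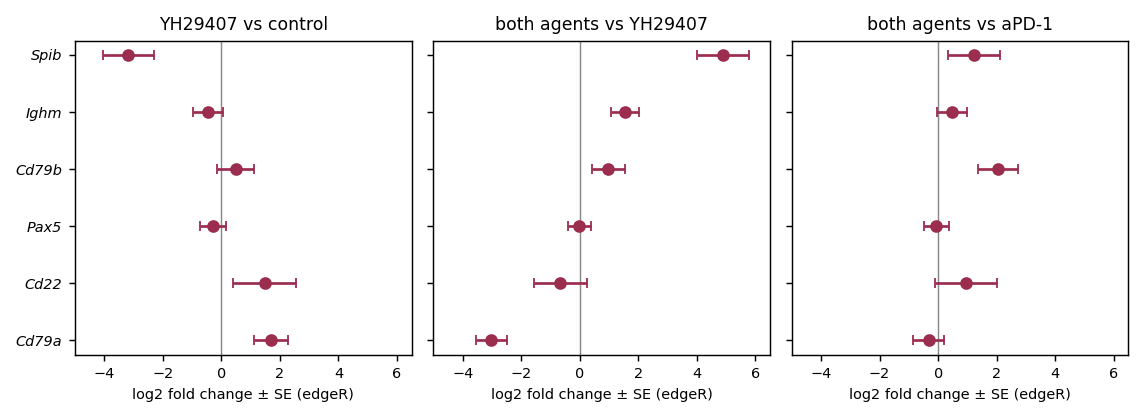
Log2 fold changes (x axis) with their standard errors from edgeR for the 6 members with more than 10 counts in every library, in 3 comparisons (both agents: YH29407+aPD-1). Spib and Cd79a stood on opposite sides of 0 with YH29407 against control (-3.18 and 1.69), and their sides changed over in the combination against YH29407 (4.89 and -3.02).

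Ighm, the IgM heavy chain, was at 16.5 and 28.6 CPM in the control group and at 38.9 and 30.2 CPM with aPD-1. It was at 24.2, 14.5 and 10.4 CPM with YH29407 and at 49.9, 71.7 and 22.1 CPM in the combination. Combination replicates 2 and 3 were the highest of the 10 libraries, while combination replicate 4 lay below YH29407 replicate 1. The log2 fold change was 1.55 (SE 0.47, edgeR adjusted p = 0.224), 1.18 without combination replicate 3 and 1.90 without combination replicate 4.

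Among the other immunoglobulin constant genes, the more abundant ones were high in libraries of different groups. Igkc, the kappa light chain, was at 2.56 and 10.2 CPM in combination replicates 2 and 3 and at 4.91 CPM in control replicate 3. It was between 0.283 and 0.719 CPM in the other 7 libraries. The IgG heavy chain Ighg2b was at 9.41, 11.9 and 7.51 CPM in the same 3 libraries and at 0 to 1.03 CPM elsewhere. Ighg2c was at 3.59, 15.2 and 5.33 CPM in them and at 0 to 0.329 CPM elsewhere, and both had 0 counts in combination replicate 4. Ighd, the IgD heavy chain that naive B cells make beside IgM, had a different pattern, with 42 and 83 counts in combination replicates 2 and 3, 12 to 34 counts in the control, aPD-1 and YH29407 libraries and 0 in combination replicate 4. In FPKM the ratio of Ighm to Igkc ran from 0.721 in control replicate 3 and 1.51 in combination replicate 3 to 30.3 in aPD-1 replicate 3.

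The plasma cell members lay with these genes. Jchain had 22, 45 and 13 counts in combination replicates 2, 3 and 4, 41 in control replicate 3, and 10, 7 and 6 with YH29407. It had 0 counts in both aPD-1 libraries and in control replicate 5, so no fold is given. Mzb1 had 11 and 4 counts in combination replicates 2 and 3, 9 in control replicate 3 and 0 elsewhere, and it was not tested. Mzb1 overlaps SPATA24 on the same strand, so its few reads are uncertain. Derl3, which clears misfolded proteins in secretory cells, was chosen after its values were seen. It was at 0.317, 0.210 and 0.142 CPM in combination replicates 2 and 3 and control replicate 3 and at 0 elsewhere. Sdc1 and Tnfrsf17, also plasma cell markers, did not share this pattern. Sdc1 was at 63.6, 26.3 and 83.7 CPM with YH29407 and at 40.1, 30.5 and 43.1 CPM in the combination. In the control group Sdc1 was at 34.3 and 23.1 CPM. These levels were far above those of Jchain, at most 0.631 CPM. The cells that made Sdc1 were not identified, so its values are not read as those of plasma cells. Tnfrsf17 was at 0 in combination replicate 2 and highest, at 0.382 CPM, in YH29407 replicate 3.

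**Figure D4:**
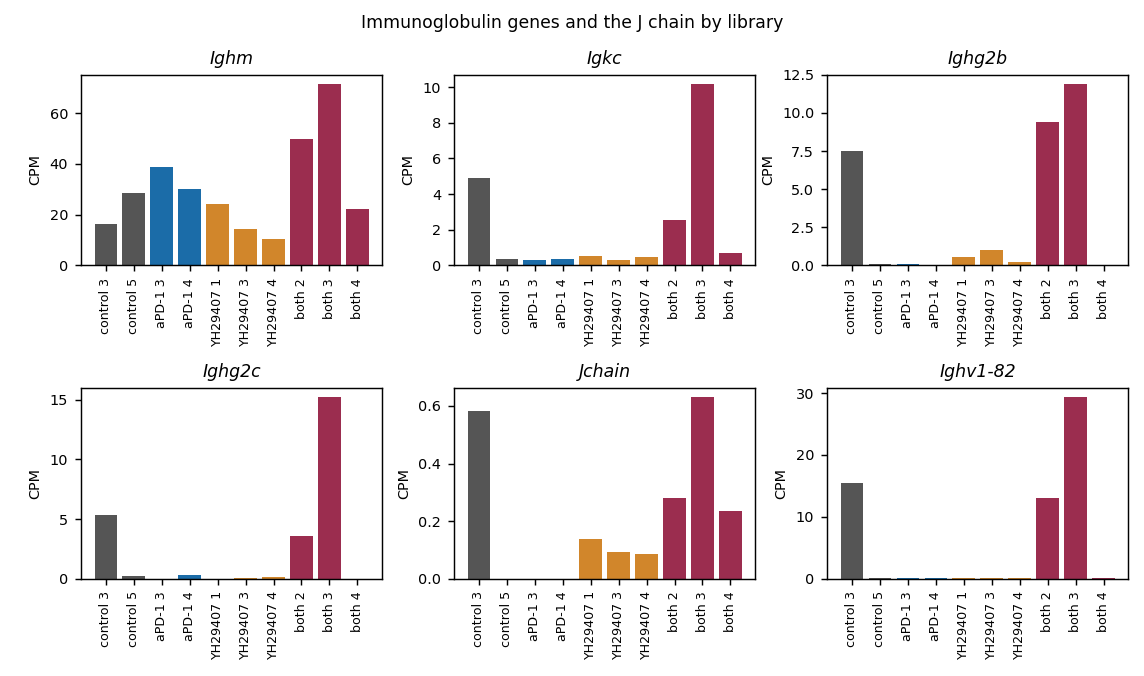
CPM of Ighm, Igkc, Ighg2b, Ighg2c, Jchain and the variable segment Ighv1-82 in each library (both: YH29407+aPD-1; digit: replicate). Ighv1-82 was at 13.0 and 29.4 CPM in combination replicates 2 and 3 and at 15.4 CPM in control replicate 3, with at most 0.192 CPM in the other 7, and Ighm did not share that pattern.

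Among variable segments, the parts of immunoglobulin genes that meet antigen, the most abundant, Ighv1-82, was high in the same 3 libraries. Other segments had other patterns. Of 348 such segments, 102 had 0 counts in all libraries and 19 were tested. Ighv1-82 had 1025, 2095 and 1086 counts in combination replicates 2 and 3 and control replicate 3, which was 64.3%, 47.7% and 58.3% of all their variable segment counts. Combination replicate 4 had 2232 variable segment counts spread over 97 segments above 3 counts, and its leading segment Igkv4-68 took 4.97% of them. The remaining 6 libraries had 69 to 283 such counts. The next segments by mean CPM were Igkv4-68, at 1.60, 17.6 and 2.0 CPM in the combination and at most 0.0548 CPM elsewhere, Igkv6-25, at 3.37 CPM in control replicate 3 and 2.02 CPM in combination replicate 3, Ighv1-80, at most 2.54 CPM, and Igkv6-23, at most 1.91 CPM. Segments resemble each other, so reads may have been shared out between copies.

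The effect of YH29407 alone was read against the control group. Here 0 of 8 members and 0% of all genes passed edgeR's adjusted threshold. At an unadjusted p under 0.05, 1 member was higher (Cd79a) and 1 lower (Spib), against 3.04% and 1.51% of all genes. DESeq2 called 1 member, Spib, against 0.709% of all genes, and limma-voom the same one, against 0.804%. The Spib log2 fold change was -3.18 (SE 0.87, edgeR adjusted p = 1), and without YH29407 replicate 3 it was -4.89 (edgeR adjusted p = 0.0376, with 0.35% of all genes called). For Cd79a it was 1.69 (SE 0.57, edgeR adjusted p = 1). All YH29407 libraries lay above both control libraries for 1 member (Cd79a), against 12.4% of all genes, and below them for 2 (Spib and the low-count Ms4a1), against 12.8%.

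Against the control group, the combination had 0 of 8 members and 0% of all genes past the adjusted threshold of edgeR. At an unadjusted p under 0.05, 0 members were higher and 1 was lower (Cd79a), against 6.98% and 3.12% of all genes. Cd79a had a log2 fold change of -1.33 (SE 0.54), Spib of 1.71 (SE 0.90), Cd79b of 1.46 (SE 0.66) and Ighm of 1.09 (SE 0.53), each with an edgeR adjusted p of 0.460. DESeq2 called 0 members, against 2.08% of all genes, and limma-voom 1, Spib, against 10.1%.

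Against aPD-1 alone, 0 of 8 members and 0% of all genes were called by edgeR. At an unadjusted p under 0.05, 2 members were higher (Cd79b and Jchain, the latter at 0 counts in both aPD-1 libraries) and 0 lower, against 5.76% and 2.34% of all genes. The Cd79b log2 fold change was 2.05 (SE 0.68, edgeR adjusted p = 0.565), and without combination replicate 3 it was 1.32. Spib had 1.22 (SE 0.88) and Cd79a -0.33 (SE 0.54). DESeq2 called 0 members, against 1.41% of all genes, and limma-voom 3, Cd79b, Spib and Jchain, against 22.1%.

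With aPD-1 alone against control, edgeR called 0 of 8 members and 0% of all genes, and DESeq2 and limma-voom also called 0 members, against 0.231% and 0.00465% of all genes. At an unadjusted p under 0.05, 0 members were higher and 1 was lower (Jchain, which rested on control replicate 3), against 1.39% and 1.32% of all genes. Log2 fold changes were 0.49 (SE 0.93) for Spib, -1.0 (SE 0.60) for Cd79a and 0.62 (SE 0.57) for Ighm.

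The interaction asks how far the combination departed, on the log2 scale, from the sum of the single effects. It was 4.40 for Spib (SE 1.26, edgeR adjusted p = 0.722) and -2.02 for Cd79a (SE 0.78, edgeR adjusted p = 0.764). At an unadjusted p under 0.05, 2 members had a positive interaction (Spib and Jchain) and 1 a negative one (Cd79a), against 3.78% and 2.39% of all genes. Jchain had 0 counts in both aPD-1 libraries and in control replicate 5, so its interaction rests on few counts. The adjusted threshold of edgeR was passed by 0 members and 0% of all genes. DESeq2 called 1 member, Spib, against 0.799% of all genes, and limma-voom 2, Spib and Cd79a, against 8%. These comparisons share libraries, so they are not independent of each other.

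Genes that act with the members were read from lists, in the combination against YH29407, with 0 genes of any list past the adjusted threshold of edgeR. Counts at an unadjusted p under 0.05 stand against 10.6% of all genes higher and 6.84% lower, and the median over all genes was 0.04. Of 18 tested genes of receptor signalling, 2 were higher and 0 lower, a share near that of all genes, with a median log2 fold change of 0.42. The most abundant were the phospholipase Plcg2 (0.08), the co-receptor chain Cd81 (0.10), the kinase Lyn (0.07) and the adaptor Pik3ap1 (0.42), none with an unadjusted p under 0.05. Of 12 B lineage transcription factors, 3 (Irf8, Ikzf3 and Pou2f2) were higher, none was lower and the median was 0.71. Irf8 had 0.91, Tcf3 0.84, Spi1, which encodes PU.1, 0.61 and Foxo1 -0.16. Ebf1, an early B lineage factor named after its values were seen, was at 8.74, 4.69 and 13.5 CPM with YH29407, 2.87 and 1.72 CPM in the control group and 5.30, 6.37 and 2.43 CPM in the combination, with a log2 fold change of 1.97 for YH29407 against control (edgeR adjusted p = 1).

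Of 18 surface and homing genes, 2 were higher and 0 lower, again near the share of all genes, with a median log2 fold change of 1.02. The 2 were Ly6d, at most 0.0994 CPM outside combination replicates 2 and 3, and Cd24a, and epithelial cells use both. The most abundant surface genes were Cd72 (0.52), Ms4a4c (-0.25), Cd40 (0.96) and Cd37 (0.33). Of 8 immunoglobulin constant genes, 2 were higher (Igkc and Ighg2c) and 0 lower, with a median of 1.36. Ighg2b had 3.55, Igkc 3.35 and Ighd 0.87, while Ighg2c had 0 counts in some libraries of both groups and is given above by its levels. Of 7 germinal center genes, 3 were higher, none was lower and the median was 1.21. The most abundant were S1pr2 (1.21), Bcl6 (0.69), Mybl1 (-0.64) and Fas (1.5). T cells and other cells use several of these.

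Of 15 plasma cell and secretion genes, 2 were higher (Prdm1 and Derl3) and 2 lower (Fkbp11 and Eaf2), with a median of -0.08. The most abundant, Edem1 (-0.16), Txndc5 (-0.28), Creld2 (-0.35) and Xbp1 (-0.08), serve protein folding and secretion in many cell types. Prdm1, which drives plasma cell fate and is also used by T cells and skin, had a log2 fold change of 1.61. Of 8 genes for survival factors and chemokines of B cells, 1 was higher (Ccl19) and 2 lower (Tnfsf13 and Lta), with a median of 0.57. Tnfsf13b, which encodes the survival factor BAFF, had -0.40, Tnfsf13, encoding APRIL, -1.03, Ccl21a 3.37 and Il6 0.10. Of 6 lymph node and lymphatic genes, 2 were higher (Ccl19 and Madcam1) and 0 lower, with a median of 2.98. Ccl21a had 980, 860 and 7 counts in combination replicates 2, 3 and 4 and 65, 112 and 0 with YH29407, Lyve1 had a log2 fold change of 1.31 and Prox1 of 2.58, and Madcam1 had 153, 68 and 43 counts against 0, 6 and 0.

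Markers of other cells were also higher in the combination than with YH29407 at an unadjusted p under 0.05. This was so for 9 of 10 T cell genes, with a median log2 fold change of 1.70, among them Lck (1.53), Trac (1.70) and Cd2 (1.69), while Cd3g (1.68) was not. It was so for 3 of 8 macrophage genes, 9 of 10 keratinocyte genes, 6 of 8 muscle genes and 10 of 13 mitochondrial mRNA genes, and for 0 in the other direction. The macrophage gene C1qb had 0.34, Mrc1 0.44, Cd68 -0.03 and Csf1r 0.33. Krt14 was near 0 with YH29407 and had 14624, 4829 and 19 counts in the combination. Among the muscle genes Ttn had 4.39, Myh1 4.74, Myh4 5.85 and Acta1 4.83, and among the mitochondrial genes ND5 had 1.55, CYTB 1.36 and ND1 1.47. The mitochondrial genes summed to 23040 CPM in combination replicate 4, against 5421 and 4095 CPM in combination replicates 2 and 3 and 4179 to 4380 CPM with YH29407, so 1 library stood far above the rest. The part of these cells and of RNA quality in the values of the members was not tested.

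The members did not share 1 pattern. Over the 10 libraries, which differ in depth and share the groups, Pearson's r of log2 CPM was -0.955 for Cd79a with Spib, 0.687 for Cd79b with Jchain, 0.629 for Spib with Ighm and 0.02 for Cd79a with Cd79b. The genes most like the mean of the 8 members over these 10 libraries were Prxl2b (0.952), Tcp11l1 (0.941), Trbj1-7 (0.927), Rac2 (0.916), Cln8 (0.911), Pdlim4 (0.911), Timd4 (0.907), Gm16386 (0.902), Serpina1e (0.902) and C1qc (0.902). For single members, chosen after their values were seen, Spib was most like Cux1 (0.993), Cd79a most like Amacr (0.981) and Ighm most like LOC115490372 (0.924). Cux1 was at 97.1, 121 and 95.6 CPM with YH29407 and at 165, 159 and 165 CPM in the combination, and Amacr was at 11.6, 6.12 and 11.1 CPM against 3.79, 4.71 and 4.28 CPM. Cux1 was lower with YH29407 than in the combination in all these libraries, and Amacr was higher. Both were picked for likeness to Spib and Cd79a over the same libraries. Their separation of the groups follows largely from that choice and is no separate result.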

How the data were processed

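RNA of 10 paraffin-embedded tumors was sequenced with paired ends. Per the labels, libraries were made with SureSelectXT RNA Direct and SMARTER kits, reads were aligned to mm10 with HISAT2 and genes were quantified with StringTie. The authors deposited whole-number read counts, FPKM and TPM for 45777 genes in each tumor, and 12616 genes had 0 counts in all of them. The deposited counts were used for tests, the deposited FPKM to compare levels between genes, and the deposited TPM not at all. The authors' code held no measurements. Not every gene of the lists is reported here.

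Counts were normalized by TMM, filtered with filterByExpr by group and fitted in 1 quasi-likelihood model of the 10 libraries (edgeR 4.0.16, R 4.3.3), with Benjamini-Hochberg adjustment over 21523 genes at a threshold of 0.05. The test was checked on simulated counts. The biological coefficient of variation was 0.502, and 6 comparisons were made. Alternatives were relative log expression factors, no low-count filter, the replicate number as a block, only the libraries compared, DESeq2 1.42.0, limma-voom 3.58.1 with sample quality weights, each library left out in turn, and combination replicates 2 and 3 left out together. Libraries of a group differed beyond sampling noise in every pair (chi-square per gene 32.8 to 847). Library totals of 56170804 to 76287659 counts set the floor of 3 counts, which covers counting error only.

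The members and the 14 gene lists were chosen with earlier results of these data known. The rule for named genes took all 9 members, up to 4 genes of highest mean CPM in each list, 5 variable segments of highest mean CPM and the 10 genes most like the members' mean, by Pearson correlation of log2(CPM + 0.25). Genes were located in GENCODE M21, and promoters came from RefSeq.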

Additional observations from a re-analysis of the deposited data

Results flagged for a closer look

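The estimated effect of YH29407 on Spib had opposite signs without and with aPD-1. The log2 fold change was -3.18 (SE 0.87) against control. For the combination against aPD-1 it was 1.22 (SE 0.88, edgeR adjusted p = 0.580), so a rise with aPD-1 is not established. All 3 YH29407 libraries lay below both control libraries, as for 12.8% of all genes. All 3 combination libraries lay above both aPD-1 libraries, and the share of all genes doing so was not taken. The log2 interaction was 4.40 (edgeR adjusted p = 0.722), 6.14 at most and 3.83 at least when single libraries were left out. It passed the threshold with DESeq2 (4.47, adjusted p = 0.0283) and limma-voom (5.92, adjusted p = 0.0123). The lowest counts, 33, 409 and 66, were those of the YH29407 libraries.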

How the results depend on the processing

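With edgeR as described, 0 members were called in any comparison. For the combination against YH29407, DESeq2 called 3 members (1409 genes in all) and limma-voom with sample weights 3 (8090 genes). Leaving out single libraries gave 0 to 2 members, and 431 genes without YH29407 replicate 3. Limma-voom called 1 member for the combination against control (10.1% of all genes) and 3 against aPD-1 (22.1%). It called 1 for YH29407 against control (0.804%) and 2 for the interaction (8%). DESeq2 called 1 for YH29407 against control (0.709%) and 1 for the interaction (0.799%). Leaving out single libraries gave 0 to 1 for YH29407 against control and 0 in the other comparisons. The 1 was without YH29407 replicate 3, with 0.35% of all genes called. Where an arm was left with 1 library, that library was assumed to vary like the others. Without combination replicates 2 and 3 it was combination replicate 4, which stood apart in quality, so no calls are given for that fit.

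Over the alternatives, 224 values kept their direction and side of the threshold, among them the number of members above the floor of counts. Since 0 members passed the threshold in the main fit, a gene that kept its side did not pass. Another 11 values changed sign, and the rest passed the threshold. The number of the rest is not given, because it includes the fit without combination replicates 2 and 3. The sign of Pax5 turned to 0.058 with relative log expression factors, 0.027 with the replicate block, 0.063 with only the libraries compared, 0.043 with DESeq2 and 0.31 without combination replicates 2 and 3, and ran from -0.29 to 0.35 when single libraries were left out. Cd22 turned to 0.68 with limma-voom and ran from -1.14 to 1.46, and Cd79b turned to -0.37 without combination replicates 2 and 3. The causes were not tested. Same-numbered libraries came from different tumors, and the correlation of their deviations from group means ran from -0.00271 to 0.209. For libraries of different numbers it ran from -0.209 to 0.114. In a group of 2 libraries the deviations mirror each other, so these values cannot show whether the numbers pair libraries. With the replicate block 0 members were called and Spib had 4.55 (edgeR adjusted p = 0.849). Depth limits Ms4a1, Jchain and Mzb1, which had at most 47, 45 and 11 counts.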

Other observations

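H2-Oa, a modulator of class II antigen loading in B cells, was at 2.16, 1.13 and 4.42 CPM with YH29407. In control libraries it was at 0.355 and 0.784 CPM (log2 fold change 2.17, edgeR adjusted p = 1). All YH29407 libraries were higher, as they were for 12.4% of all genes. Tnfrsf13c, the BAFF receptor gene, was at 0.138 and 0.303 CPM in YH29407 replicates 1 and 4 and at 1.44 to 3.40 CPM in the other 8 libraries, among them 2.54 CPM in YH29407 replicate 3. Both genes were named after their values were seen.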
